A study of Homo sapiens with 4 samples.

Results

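The class I and class II histone deacetylases are the 10 genes HDAC1 to HDAC10, which were picked by gene symbol from the 26364 genes listed for each sample. All 10 were listed and all 10 passed the filter for testing, a mean of at least 1 RPKM (reads scaled to the length of the gene and to the reads of the sample) over the samples, which 11411 genes passed. RNA-seq was carried out on BE(2)C, an established human neuroblastoma line with amplified MYCN, in 2 conditions of 2 samples each. Cells labelled wild type received a control siRNA (Ctrl), and the others received siRNA against MYCN (MYCN KD). Both conditions share the same line, the same lipid transfection and the same culture conditions. The labels give 80 nM siRNA for a 6 h incubation, with RNA taken on the next day, and the study's methods give a lower final concentration. The study calls its replicates biological, and neither it nor the labels say whether they came from separate cultures, so the p-values measure only the spread between these samples, which may be technical. The deviations of the replicates from their means mirrored each other between the conditions, so the spread at a gene rests on less independent information than the number of samples implies.

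Histone deacetylases remove acetyl groups from lysine residues, and on histone tails this goes with more compact chromatin and lower transcription. HDAC1, HDAC2, HDAC3 and HDAC8 form class I, mostly nuclear enzymes, of which HDAC1, HDAC2 and HDAC3 act inside multi-protein corepressor complexes. HDAC4, HDAC5, HDAC7 and HDAC9 form class IIa, which shuttle between nucleus and cytoplasm, bind MEF2 transcription factors and have little deacetylase activity of their own. HDAC6 and HDAC10 form class IIb, which act largely in the cytoplasm. MYCN encodes N-Myc, a transcription factor that binds E-box DNA with its partner MAX, and HDAC inhibitors have been studied as drugs in neuroblastoma. The question addressed is which of these deacetylase genes change their RNA level when MYCN is lowered, and whether class I and class II differ in this.

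The targeted gene was lower in the knockdown samples, with MYCN at 1068 and 1073 RPKM in the Ctrl samples and 720.2 and 718.0 RPKM in the MYCN KD samples (log2 fold change -0.57, SE 0.0286, limma adjusted p = 0.00361). Totals of normalized reads, recovered from the RPKM values and not the sequenced depth, ranged from 29055819 to 34142988 per sample. All 11 markers of sympathetic neuroblastoma on the list, such as PHOX2A and DBH, were at a mean of 10 RPKM or more, and 6 of them rose and 2 fell. Their summed level was 3932 and 3624 RPKM without the knockdown and 5079 and 5501 RPKM with it. Of 6 fibroblast markers, 4 could be tested and 3 rose, the summed level being 23.0 and 25.1 RPKM for Ctrl cells, compared with 31.1 and 28.5 RPKM for MYCN KD cells. Among them COL1A1 rose by 0.67 and DCN by 0.66 on the log2 scale, PDGFRB was at 10.1 to 11.8 RPKM and LUM at 6.64 to 8.19 RPKM, and COL1A2 reached at most 0.0254 RPKM. The 5 leukocyte markers summed to between 1.57 and 1.80 RPKM in a sample, nearly all of it CD14. The 6 epithelial and endothelial markers summed to between 0.429 and 1.09 RPKM, each was below 1 RPKM in every sample, and KRT5 was listed at 0. The part of these shifts in the deacetylase values was not tested. In bulk RNA, fewer cells that express a gene and less RNA per cell cannot be told apart.

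On the log2(RPKM + 1) scale HDAC6, HDAC10 and HDAC5 rose in MYCN KD, HDAC4, HDAC7 and HDAC1 fell, and HDAC2, HDAC3, HDAC8 and HDAC9 did not pass the test (limma, Benjamini-Hochberg adjusted p under 0.05). That is 3 of 10 higher, against 25.3% of all tested genes, and 3 of 10 lower, against 22.8%, so both shares were near the background. In all 10 genes the MYCN KD values lay wholly on one side of the Ctrl values, 5 above and 5 below, where 40.4% of tested genes lay above and 35.8% below. The median log2 fold change of the 10 genes was 0.0047, beside 0.03 for all tested genes. Where 1 sample is left out below, its condition keeps a single sample, which is assumed to vary like those of the other condition, so a call lost or gained there can reflect that smaller design as well as the gene.

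**Figure D1:**
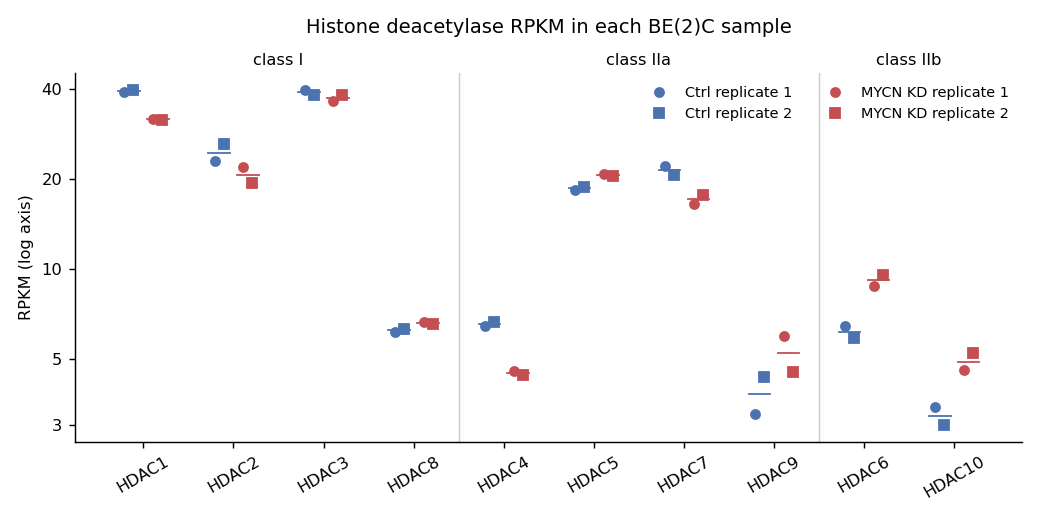
RPKM (log axis) of HDAC1 to HDAC10 in each of the 4 samples, grouped by class, with a horizontal line at each condition's mean. HDAC1, HDAC3, HDAC2, HDAC7 and HDAC5 sit at 16.5 RPKM or more in every sample and the other 5 at 9.54 RPKM or less, and the Ctrl and MYCN KD points of HDAC6, HDAC10 and HDAC4 lie clearly apart.

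RPKM is a level per gene length, so the genes can be ranked against each other. In Ctrl the order of the mean levels was HDAC1, HDAC3, HDAC2, HDAC7, HDAC5, HDAC4, HDAC8, HDAC6, HDAC9 and HDAC10. The replicate ranges of HDAC1 and HDAC3, of HDAC6 with both HDAC4 and HDAC8, and of HDAC9 and HDAC10 overlapped, so these neighbours did not differ beyond their spread. In MYCN KD the order was HDAC3, HDAC1, HDAC5, HDAC2, HDAC7, HDAC6, HDAC8, HDAC9, HDAC10 and HDAC4. The ranges overlapped for HDAC5 and HDAC2 and for HDAC9 with both HDAC10 and HDAC4. HDAC4 ranked 7 and 6 in the Ctrl samples and 10 in both knockdown samples. HDAC6 ranked 6 and 8 in the Ctrl samples and 6 in both knockdown samples.

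HDAC1 is a catalytic subunit of the SIN3, NuRD, CoREST and MiDAC complexes, and it was the class I gene that fell. Its level was 39.0 and 39.5 RPKM in the Ctrl replicates, against 31.8 and 31.4 RPKM after the knockdown. The conditions did not overlap and the replicates of each lay within 1 RPKM of each other. The mean dropped by 19.6%, with a log2 fold change of -0.31 (SE 0.0339, limma adjusted p = 0.00888), and 20.02% of tested genes had a lower fold change. Without MYCN KD replicate 2 the fold change was -0.30 and the adjusted p 0.0519, just past the threshold with a nearly equal fold change. The gene lies at chr1:32757684-32799236 (GRCh37, plus strand, 14 exons in the canonical transcript), and none of its exons overlap another gene. The 250 bases upstream of its start (chr1:32757434-32757683, plus strand) are printed because HDAC1 is the class I gene that fell and its RefSeq promoter window holds no E-box CACGTG. Capitals mark GC boxes, GGGCGG, which overlap in the second run.
HDAC1: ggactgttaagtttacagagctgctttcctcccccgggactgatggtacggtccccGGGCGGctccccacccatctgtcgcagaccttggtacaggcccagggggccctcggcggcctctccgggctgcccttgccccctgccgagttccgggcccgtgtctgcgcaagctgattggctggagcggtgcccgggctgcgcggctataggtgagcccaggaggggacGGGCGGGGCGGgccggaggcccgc

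HDAC2, the close relative of HDAC1 in the same complexes, did not pass the test. Its level was 22.9 and 26.0 RPKM without the knockdown and 21.9 and 19.3 RPKM with it. Both knockdown values lay below both control values, but Ctrl replicate 1 lay farther from Ctrl replicate 2 than from the nearer knockdown value. The log2 fold change was -0.24, with a 95% interval from -0.53 to 0.06 (limma adjusted p = 0.136). Leaving out Ctrl replicate 1 or MYCN KD replicate 1 gave -0.33 (adjusted p = 0.0319) and -0.32 (adjusted p = 0.0420) by the same test, while leaving out Ctrl replicate 2 or MYCN KD replicate 2 gave -0.15 each time (adjusted p = 0.379 and 0.387). The ratio of HDAC1 to HDAC2 within a sample was 1.71 and 1.52 without the knockdown and 1.45 and 1.63 with it. These ratios overlapped (exact two-sided permutation p = 0.667, where 2 against 2 samples cannot give less than 0.333), so a shift in the balance of the pair was not detectable. HDAC2 lies at chr6:114254192-114332472 (minus strand, 14 exons) and shares 69 exonic bases with the antisense lncRNA HDAC2-AS2.

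HDAC3, the catalytic subunit of the NCoR complex, had a change near 0 that did not pass the test. Its level was 39.7 and 38.1 RPKM for Ctrl cells, compared with 36.5 and 38.0 RPKM for MYCN KD cells. The lower control value and the higher knockdown value were almost the same. The log2 fold change was -0.06, with a 95% interval from -0.19 to 0.07 (limma adjusted p = 0.315). HDAC3 ranked 1 and 2 among the members in the Ctrl samples and 1 in both MYCN KD samples. It lies at chr5:141000443-141016416 (minus strand, 15 exons) and shares 426 exonic bases with an antisense lncRNA.

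HDAC8, a class I enzyme that works outside these complexes and deacetylates the cohesin subunit SMC3, was the only class I gene whose knockdown values lay above the control values. It stood at 6.16 and 6.28 RPKM in the Ctrl replicates, against 6.65 and 6.53 RPKM after the knockdown. The log2 fold change was 0.07, with a 95% interval from -0.05 to 0.19 (limma adjusted p = 0.223), which leaves out a change as large as that of HDAC1 in either direction. The gene lies at chrX:71549366-71792951 (minus strand, 11 exons). Of its 22888 exonic bases in GENCODE, 1193 are shared with an unnamed protein-coding gene model on the same strand. Reads were counted on RefSeq genes, with a length of 3635 bases recovered for HDAC8. Whether the shared bases were counted was not tested.

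HDAC4 showed the largest fall in the family. This class IIa enzyme is held in the cytoplasm by 14-3-3 proteins once phosphorylated, and in the nucleus it represses MEF2 target genes. Its level was 6.41 and 6.62 RPKM without the knockdown and 4.54 and 4.41 RPKM with it, so the conditions were far apart and the replicates close. The mean dropped by 31.3%, with a log2 fold change of -0.46 (SE 0.0432, limma adjusted p = 0.00690), and 11.9% of tested genes had a lower fold change. Between 1185 and 1964 reads lay behind each value. HDAC4 lies at chr2:239969864-240323348 (minus strand, 27 exons) and shares 359 exonic bases with 2 antisense lncRNAs. Its upstream sequence is printed because HDAC4 was the only member with a canonical E-box in a RefSeq promoter window, with its first base 13 bases before the start. The other RefSeq windows of HDAC4 held no E-box. The 245 bases are those free of protein-coding exons (chr2:240323349-240323593, minus strand), and 202 of the 250 upstream bases lie in annotated exons. Capitals mark, in order, a GC box read on the other strand (CCGCCC) and the E-box (CACGTG).
HDAC4: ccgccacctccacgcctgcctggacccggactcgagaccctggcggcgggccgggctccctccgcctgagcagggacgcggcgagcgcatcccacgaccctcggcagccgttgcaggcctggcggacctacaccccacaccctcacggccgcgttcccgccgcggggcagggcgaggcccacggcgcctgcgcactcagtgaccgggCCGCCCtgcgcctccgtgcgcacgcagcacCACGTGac

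HDAC5 rose by a small amount that stood at the edge of the threshold. It is a close relative of HDAC4 and is exported from the nucleus in the same way. Its level was 18.4 and 18.8 RPKM for Ctrl cells, compared with 20.8 and 20.4 RPKM for MYCN KD cells. The conditions were separate, and the mean was 10.9% higher in the knockdown. The log2 fold change was 0.14 (SE 0.0370, limma adjusted p = 0.0494), and the call was lost when any 1 of the 4 samples was left out, with fold changes from 0.13 to 0.16 and adjusted p from 0.352 to 0.479. HDAC5 lies at chr17:42154114-42201070 (minus strand, 27 exons), where 1826 exonic bases overlap G6PC3 on the opposite strand. G6PC3, named here because of that overlap, did not pass, at 0.03 (adjusted p = 0.806). Whether the counting used strand is not given in the sources used here, and without it the reads of overlapping genes cannot be told apart.

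HDAC7, the class IIa member best known from endothelial cells and thymocytes, fell in MYCN KD. It stood at 22.1 and 20.6 RPKM in the Ctrl replicates, against 16.5 and 17.7 RPKM after the knockdown, without overlap. The log2 fold change was -0.31 (SE 0.0614, limma adjusted p = 0.0283), about that of HDAC1. The call was lost without Ctrl replicate 1 (-0.26, adjusted p = 0.109) and without MYCN KD replicate 1 (-0.26, adjusted p = 0.117), with the same direction. HDAC7 lies at chr12:48176505-48226915 (minus strand, 26 exons), and 1110 of its exonic bases are shared with the opposite-strand gene SLC48A1 and antisense lncRNAs. SLC48A1, also named because of the overlap, changed the other way (0.25, adjusted p = 0.0392).

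HDAC9, known from heart and skeletal muscle, had the widest spread between replicates on the log2 scale. Its level was 3.26 and 4.36 RPKM without the knockdown and 5.97 and 4.51 RPKM with it. The highest control value and the lowest knockdown value nearly touched. The log2 fold change was 0.38, with a 95% interval from -0.16 to 0.91 (limma adjusted p = 0.174), an interval that holds no change as well as a rise larger than that of HDAC6. Without Ctrl replicate 2 the fold change was 0.54 (adjusted p = 0.00116), and without MYCN KD replicate 2 it was 0.54 (adjusted p = 0.00141). Without Ctrl replicate 1 or MYCN KD replicate 1 it was 0.21 each time (adjusted p = 0.256 and 0.277), so the size of the change differed with the sample left out. HDAC9 lies at chr7:18126572-19042039 (plus strand, 26 exons), and no exon of it overlaps another gene.

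Both class IIb genes rose, and they had the largest rises of the family. HDAC6 carries a pair of catalytic domains and a ubiquitin-binding zinc finger, and deacetylates alpha-tubulin, cortactin and HSP90 in the cytoplasm. Its level was 6.45 and 5.87 RPKM for Ctrl cells, compared with 8.72 and 9.54 RPKM for MYCN KD cells, which did not overlap. The mean rose by 48.3%, with a log2 fold change of 0.50 (SE 0.0726, limma adjusted p = 0.0145), and 88.0% of tested genes had a lower fold change. HDAC6 lies at chrX:48659784-48683392 (plus strand, 29 exons), and none of its exons overlap another gene. The part of an upstream window outside protein-coding exons, 229 bases, is printed because HDAC6 had the highest log2 fold change of the members. Like every member searched other than HDAC4, whether it rose or fell, HDAC6 held no E-box in its RefSeq windows. The printed stretch comes from chrX:48659555-48659783 on the plus strand and has no capitals because none of the 3 motifs searched lies in it. A GC box begins 18 bases before the start, in the part of this window not printed. The other HDAC6 windows also hold GC boxes.
HDAC6: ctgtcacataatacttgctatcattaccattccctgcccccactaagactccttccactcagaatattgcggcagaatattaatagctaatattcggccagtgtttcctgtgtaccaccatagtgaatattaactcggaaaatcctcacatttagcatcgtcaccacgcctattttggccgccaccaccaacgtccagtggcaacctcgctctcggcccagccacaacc

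HDAC10, a deacetylase of the polyamine N8-acetylspermidine, had the lowest mean level in Ctrl, within the spread of HDAC9. Its level was 3.442 and 3.005 RPKM in the Ctrl replicates, against 4.57 and 5.21 RPKM after the knockdown. The conditions were separate, and the mean rose by 51.6%, the largest relative rise of the 10 genes. On the log2 scale the change was 0.48 (SE 0.0905, limma adjusted p = 0.0249), which a pseudocount of 1 understates at such a low level. The reads behind HDAC10 were the fewest of the family, 318 and 260 in the Ctrl replicates, against 359 and 436 after the knockdown, and the counting error of 1 value was up to 6.20%. With quantile normalization the fold change was 0.40 and the adjusted p 0.0614. HDAC10 lies at chr22:50683612-50689834 (minus strand, 20 exons). Of its 4951 exonic bases in GENCODE, 3644 are shared with MAPK12 on the same strand and an antisense lncRNA. The length recovered for the counting on RefSeq genes was shorter, 2706 bases. How many of these are shared was not tested. MAPK12, named because of that overlap, also rose (0.35, adjusted p = 0.0249), and reads from shared bases could belong to either gene.

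**Figure D2:**
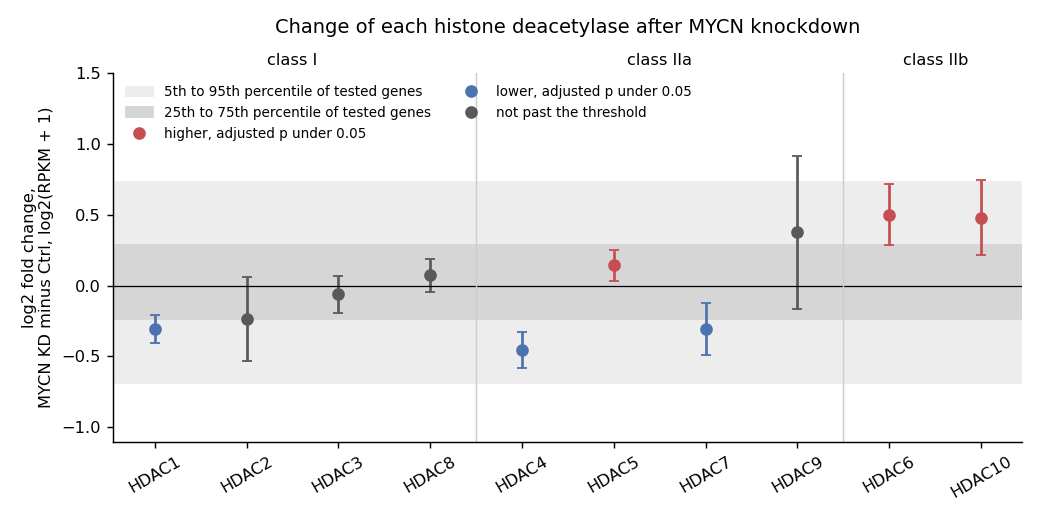
Log2 fold change of each histone deacetylase, MYCN KD minus Ctrl on the log2(RPKM + 1) scale, with 95% confidence intervals from limma, over bands that show the 5th to 95th and 25th to 75th percentiles of all tested genes. All 10 points lie between the 5th percentile of -0.69 and the 95th of 0.73. HDAC6, HDAC10 and HDAC9 lie above the 75th percentile of 0.29, and HDAC4, HDAC7, HDAC1 and HDAC2 below the 25th of -0.235.

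Class I and class II were then set side by side. In class I 0 genes rose, 1 fell and 3 did not pass, with a median log2 fold change of -0.15. In class II 3 rose, 2 fell and 1 did not pass, with a median of 0.26, which became 0.17 without Ctrl replicate 1 or without MYCN KD replicate 1. Class IIa held changes in both directions, 1 up and 2 down, with a median of -0.08, and both class IIb genes rose. The median of class II depended on which members were counted. With a mean of at least 5 RPKM required, HDAC9 and HDAC10 dropped out and the class II median turned to -0.08. Among all tested genes 25.3% were called higher and 22.8% lower, and classes this small cannot be set apart from those shares by their counts. No test was run over a class, since its members were chosen with results known.

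As a share of the summed RPKM of the 10 genes, class I made up 64.2% and 65.0% without the knockdown and 61.3% and 60.7% with it. The mean share of class I dropped by 3.62 percentage points, and that of class IIb was 3.34 points higher. Class IIb made up 5.89% and 5.25% in the Ctrl replicates, against 8.42% and 9.39% after the knockdown. The share of class IIa was 29.9% and 29.8% without the knockdown and 30.28% and 29.95% with it, a difference of 0.283 points between the means. The summed level of all 10 genes was 167.8 and 169.2 RPKM without the knockdown and 157.9 and 157.0 RPKM with it. Of this, class I went from a mean of 108.9 to 96.0 RPKM, class IIa from 50.3 to 47.4 RPKM and class IIb from 9.38 to 14.02 RPKM. Shares within a sample do not depend on a single scaling factor per sample. They may depend on the authors' removal of unwanted variation (RUVSeq), whose part in them was not tested. With 2 against 2 samples no permutation test of the shares can give a p below 0.333.

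**Figure D3:**
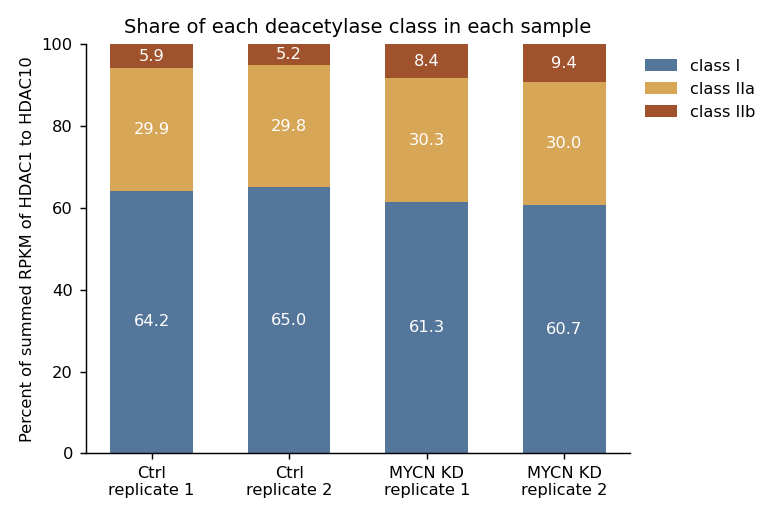
Percent of the summed RPKM of HDAC1 to HDAC10 held by class I, class IIa and class IIb in each of the 4 samples, as stacked bars from 0 to 100. The class IIb segment is at 5.89% and 5.25% in Ctrl and at 8.42% and 9.39% in MYCN KD, while class IIa stays between 29.8% and 30.3%.

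Pairs of genes within a sample showed the same shifts, though the pairs were chosen after the values were seen and carry no test. The ratio of HDAC6 to HDAC4 was 1.01 and 0.888 in the Ctrl replicates, against 1.92 and 2.16 after the knockdown, so genes at nearly equal levels came to differ. The ratio of HDAC5 to HDAC4 went from 2.87 and 2.83 to 4.58 and 4.63. HDAC10 was at 0.0883 and 0.0760 of the HDAC1 level in Ctrl and at 0.144 and 0.166 in MYCN KD.

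Promoter windows of RefSeq (GRCh38.p14) were found for 9 of the 10 genes, in 19 windows of up to 300 bases with 250 before the start, and were placed on GRCh37 by exact sequence match. HDAC5 was not in the table. The E-box CACGTG was searched on both strands, and it was present in 1 of the 9 genes, HDAC4, against 8.77% of 27305 genes. The variant CACGCG was in 0 of the 9 genes, against 13.5% of all genes. The GC box GGGCGG, a motif chosen after the values were seen, was in 6 of the 9 genes, HDAC1, HDAC3, HDAC4, HDAC6, HDAC9 and HDAC10, against 48.3%. Genes can have several windows, and by window it was in 8 of 19, against 45.0% of 35116, so no excess was seen. The 6 genes with a GC box include genes that rose, genes that fell and genes that did not pass the test. A match describes these letters only, and the absence of one says nothing about binding elsewhere.

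The deacetylases outside classes I and II are HDAC11, the class IV enzyme, and the NAD-dependent sirtuins of class III. HDAC11 was below the filter, at 0.437 and 0.446 RPKM for Ctrl cells, compared with 0.731 and 0.718 RPKM for MYCN KD cells, from 43 to 67 reads a sample, and was not tested. Among 7 sirtuins, SIRT2, a cytoplasmic enzyme that like HDAC6 deacetylates alpha-tubulin, rose from 21.2 and 19.2 RPKM to 26.4 and 29.1 RPKM (log2 fold change 0.44, limma adjusted p = 0.0228). Of the mitochondrial enzymes, SIRT3 was called higher at 0.19 (adjusted p = 0.0417) and SIRT4 lower at -0.20 (adjusted p = 0.0229). SIRT5 did not pass at -0.03 (adjusted p = 0.711). The SIRT4 values came from only 57 to 82 reads a sample, fewer than those of HDAC10, so their counting error was larger. The SIRT4 replicates lay closer together than counting error at so few reads, so the p-value may overstate the evidence for a fall. The nuclear enzymes SIRT1, SIRT6 and SIRT7 did not pass the test, with log2 fold changes of 0.00, 0.13 and 0.08.

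Together with these other deacetylases, the lists of complexes and partners that work with the family held 97 genes, of which 91 were tested. Of these 12 rose and 20 fell, beside 25.3% and 22.8% of all tested genes. Without MYCN KD replicate 1 the genes that rose were 7. The list medians lay between -0.29 and 0.19 on the log2 scale. The MiDAC complex, with 3 genes, was the only list in which every tested gene fell, and it is named as the extreme of several short lists. The same shares, 25.3% higher and 22.8% lower, are the background for the count of each list below.

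In the SIN3 complex, which pairs HDAC1 and HDAC2 with a SIN3 scaffold, 1 of 16 genes rose and 3 fell. The scaffold SIN3A fell slightly, from 12.2 and 12.4 RPKM to 10.9 and 10.7 RPKM (-0.17, limma adjusted p = 0.0392), and its paralog SIN3B had 0.17 (adjusted p = 0.113). FAM60A, a SIN3 subunit, fell by 0.77 on the log2 scale (adjusted p = 0.0178), the largest change in the list, and the histone chaperone RBBP4, which also belongs to NuRD, by 0.44 (adjusted p = 0.0118). ARID4A rose by 0.29 (adjusted p = 0.0153). In NuRD, which joins the deacetylases to a nucleosome remodeller, 2 of 12 genes rose and 4 fell. The remodellers CHD4 and CHD3 rose by 0.11 (adjusted p = 0.0497) and 0.18 (adjusted p = 0.0261). Among the MTA scaffolds MTA1 fell, from 74.9 and 69.6 RPKM to 52.7 and 56.6 RPKM (-0.40, adjusted p = 0.0178), while MTA2 and MTA3 stood at -0.02 and 0.03 without passing. GATAD2A fell by 0.35 (adjusted p = 0.0136).

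In CoREST, which couples HDAC1 and HDAC2 to a histone demethylase, 1 of 8 genes rose and 2 fell. The demethylase KDM1A went from 74.7 and 77.9 RPKM to 49.5 and 47.6 RPKM (-0.64, limma adjusted p = 0.00452). ZNF217 rose by 0.56 (adjusted p = 0.0164), and the scaffolds RCOR1 and RCOR2 did not pass, at -0.06 and -0.23. MiDAC, the mitotic deacetylase complex, had all 3 genes lower. Its scaffold DNTTIP1 went from 45.0 and 44.2 RPKM to 36.0 and 36.8 RPKM (-0.29, adjusted p = 0.0106), TRERF1 fell by 0.48 (adjusted p = 0.0211) and ELMSAN1 by 0.24 (adjusted p = 0.0221). In the NCoR complex, the home of HDAC3, 1 of 5 genes rose, GPS2 (0.32, adjusted p = 0.0398), and 1 fell, TBL1X (-0.62, adjusted p = 0.0167). The corepressor NCOR1 stood at -0.19 (adjusted p = 0.145).

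For HDAC8 the list held cohesin and the enzymes that acetylate it, in which 1 of 11 genes rose and 3 fell. Its substrate SMC3 went from 18.4 and 19.9 RPKM to 16.4 and 15.1 RPKM (-0.26, limma adjusted p = 0.0486). The acetyltransferase ESCO1 fell by 0.25 (adjusted p = 0.0152), PDS5A by 0.40 (adjusted p = 0.0486), and the cohesin loader NIPBL rose by 0.16 (adjusted p = 0.0414).

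The partners of class IIa mostly did not pass the test. Of 4 MEF2 factors, MEF2A and MEF2D were tested and stood at 0.08 and 0.09, and MEF2C was at 0.0100 RPKM or less in every sample. None of the 6 tested 14-3-3 genes passed (0 calls by limma), with a median of 0.11. Among 11 tested kinases that can phosphorylate these enzymes or their relatives, PRKD2 rose by 0.48 (limma adjusted p = 0.0160) and SIK1 fell by 0.48 (adjusted p = 0.00989).

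Among 12 tested partners and substrates of class IIb, 3 rose and 3 fell. The alpha-tubulin gene TUBA1A rose from 1021 and 1009 RPKM to 1873 and 1894 RPKM (0.89, limma adjusted p = 0.00359), while TUBA4A fell by 0.61 (adjusted p = 0.00425). The alpha-tubulin genes are related in sequence, and how any reads shared between them were counted is not given in the sources used here. The actin-binding protein cortactin, CTTN, went from 42.6 and 43.8 RPKM to 55.1 and 53.7 RPKM (0.32, adjusted p = 0.00948). The chaperone genes HSP90AB1 and HSPA8 fell by 0.68 (adjusted p = 0.00359) and 0.56 (adjusted p = 0.00645). SAT1, which acetylates polyamines, rose by 0.26 (adjusted p = 0.0152).

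**Figure D4:**
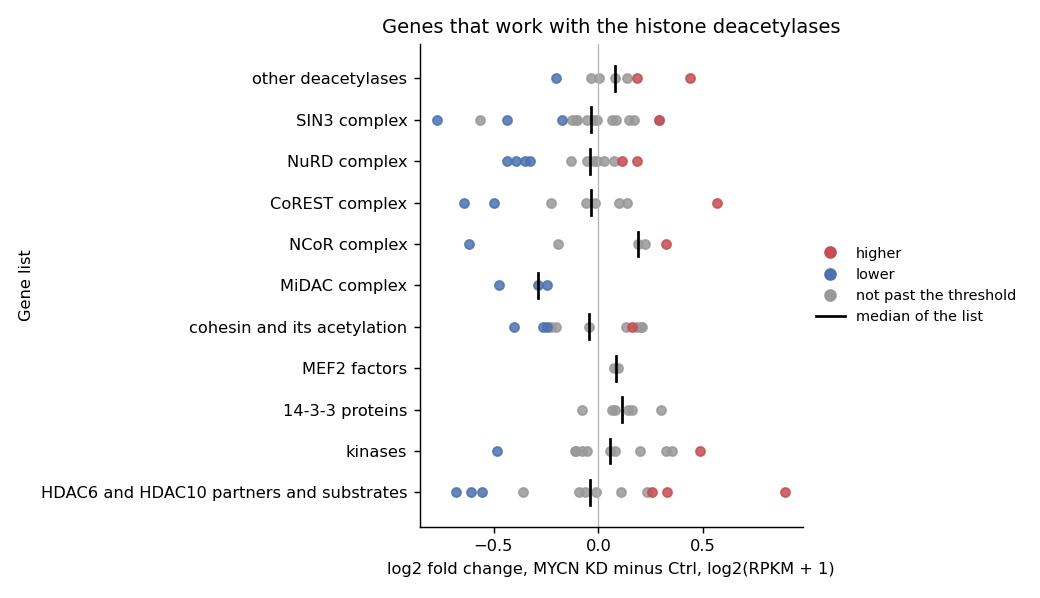
Log2 fold change of each tested gene of the partner and other deacetylase lists, MYCN KD minus Ctrl on the log2(RPKM + 1) scale, by list, coloured by the limma call, with a black bar at the list's median. Most list medians sit between -0.04 and 0.19, the MiDAC median is at -0.29, and single genes range from FAM60A at -0.77 to TUBA1A at 0.89.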

How the data were processed

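RNA-seq of 4 BE(2)C samples, 2 Ctrl and 2 MYCN KD, was grouped from the sample labels. According to the submitters' processing notes and the study's methods, HISAT2 2.1.0 served for alignment to hg19 (GRCh37) and featureCounts for counting on RefSeq genes, followed by DESeq2 and by RUVSeq, which takes out unwanted variation. RPKM was then derived by the authors from the normalized counts and deposited as 1 table per sample. The RUVSeq variant and whether counting used strand are not given in the sources used here, so raw depth and its adjustment are outside these values.

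From the RPKM steps of microRNA hairpin genes, whose length is known, each sample's total of normalized reads was recovered, and 19899 of 19908 genes above 0 then gave whole reads in every sample (tolerance 0.005). Counting error covers counting only.

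Genes with a mean of at least 1 RPKM (11411) were fitted on the log2(RPKM + 1) scale by limma 3.58.1 under R 4.3.3 (lmFit, eBayes with trend, no replicate block), with Benjamini-Hochberg adjustment over all of them and a threshold of 0.05. Fold changes on this scale understate those of low genes. The fit was tested on simulated data in which reads were drawn independently for each sample. Those data lack the mirrored deviations of the replicates here, so they cannot vouch for the p-values.

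The members and gene lists were chosen with earlier results of these data known. Named were all 10 members, HDAC11, the sirtuins, MYCN, fixed scaffolds, and from each list up to 3 genes past the threshold with the largest change in each direction. Overlapping genes, the GC box and further ratios were chosen after their values were seen. Positions and overlaps came from GENCODE release 44 lifted to GRCh37, and promoters from RefSeq. The reads were counted on RefSeq genes, so exonic bases shared in GENCODE need not have been counted. Python 3.11.15, pandas 2.3.3, numpy 2.4.6, scipy 1.17.1 and matplotlib 3.10.9 were used. Alternatives were another pseudocount, other filters, 2 other scalings, eBayes without trend, limma voom on the recovered reads, a replicate block and each sample left out. The study's other assays were not analysed here. Some genes of the partner lists are not reported here by name.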

Additional observations from a re-analysis of the deposited data

How the results depend on the processing

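The direction of every member tested held under every alternative, and HDAC4 and HDAC6 passed the threshold in each of them. Of 118 single-member results under alternatives, 14 lost and 4 gained the call, all by limma. HDAC5 lost it with no filter on low values (0.14, adjusted p = 0.0539), with quantile normalization (0.14, adjusted p = 0.0522), with eBayes without trend (0.14, adjusted p = 0.0508) and with each sample left out (0.13 to 0.16). HDAC10 lost it with quantile normalization (0.40, adjusted p = 0.0614), where 1 member was called higher in place of 3. With 1 sample left out, HDAC1 ranged from -0.32 to -0.29, HDAC2 from -0.33 to -0.15, HDAC7 from -0.35 to -0.26 and HDAC9 from 0.21 to 0.54.

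With the replicate block HDAC1 (-0.31, adjusted p = 0.0943), HDAC5 (0.14, adjusted p = 0.519) and HDAC7 (-0.31, adjusted p = 0.120) lost the call, so that 1 member was called lower and 4 genes of the partner and other deacetylase lists higher in place of 12. Deviations of the samples with replicate number 1 were mirror images between the conditions (r = -0.985 across tested genes, which are not independent). Whether the replicate numbers pair the samples is not given, so neither fit can be preferred from these values. The part of the RUVSeq step in this mirroring, and so in the spread behind the p-values, was not tested. A crossed replicate block, added after seeing the data, called 5 members higher and 5 lower, 43 and 45 genes of those lists, and 5910 and 5262 of all genes.

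The class I median of -0.15 became -0.090 when the samples were rescaled to the same total and -0.12 with quantile normalization, and ranged from -0.17 to -0.12 with a sample left out. The class II median of 0.26 became -0.082 with a mean of at least 5 RPKM, since HDAC9 and HDAC10 were not tested then, and ranged from 0.17 to 0.28 with a sample left out. The class IIa median of -0.08 became -0.31 with that filter and -0.024 when rescaled, and ranged from -0.099 to -0.064. As a share of reads, not divided by gene length, the class IIa difference was 0.541 points. With the higher filter 1868 genes were called higher in place of 2890. With a sample left out, from 7 to 12 genes of the partner and other deacetylase lists were called higher. The cause of these shifts was otherwise not tested. HDAC11 and several partners were too low to be tested.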
